A study of Homo sapiens with 15 samples.

Results

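The expression of 9 genes of lipid storage and fat burning was examined in HepG2 cells transfected with messenger RNA in nanoparticles. The genes were chosen by symbol, with earlier results of these data known. They were CIDEC, PLIN2, PLIN5, ANGPTL4, CPT1A, ACADM, FABP1, PDK4 and PPARA. All 9 were found in the deposited count matrix of 41412 entries, each under 1 entry, and all 9 passed the filter on low counts that left 18380 genes for testing. HepG2 is an established human hepatocellular carcinoma line, and its genotype is given as wild type. Cells of 4 groups, each with 3 biological replicates, were given 1 µg of eGFP mRNA, which encodes a green fluorescent protein, with a nanoparticle transfection reagent, NanoLNP. In 1 group the mRNA was non-cloaked, and in 3 it was cloaked with the reagent CR-3. Weak cloaking used 0.1 M for 0.5 h at 25 °C, medium cloaking 0.5 M for 1 h at 30 °C and strong cloaking 1 M for 2 h at 37 °C. A further group of 3 was left untransfected, and all cells were lysed at 48 h. Empty particles were not among the groups, so every difference from untransfected cells is one of particle plus mRNA. HepG2 is a tumour line and not normal liver, and the levels are per bulk RNA sample, in which fewer cells with a transcript and less transcript per cell cannot be told apart.

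Fat in a liver cell is kept as triglyceride in lipid droplets or burned in mitochondria. Perilipins such as PLIN2 and PLIN5 coat the droplet surface, and CIDEC helps droplets fuse and grow. CPT1A loads long-chain fatty acids onto carnitine, the step that commits them to entering mitochondria, and ACADM oxidises medium-chain acyl-CoA inside. FABP1 carries fatty acids through the cytosol of liver cells, PDK4 shuts pyruvate dehydrogenase down by phosphorylation so that fat rather than glucose is burned, and ANGPTL4 is a secreted inhibitor of lipoprotein lipase. PPARA encodes the nuclear receptor PPAR-alpha, which fatty acids activate and which, as a dimer with RXR, binds direct repeats of the half-site AGGTCA. The other 8 genes are all known PPAR targets in liver or adipose tissue.

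Promoter sequences of 1 gene that fell and 1 gene that rose after transfection are shown, because FABP1 was the member with an exact half-site before its start and CIDEC had the largest increase. Both are RefSeq reference sequences on GRCh38.p14, cut to the bases that lie outside the annotated gene, 5′ to 3′ on the gene's own minus strand. Capitals mark the half-site AGGTCA, which in FABP1 is read on the opposite strand as TGACCT. FABP1 covers chr2:88128117-88128312 and CIDEC covers chr3:9880255-9880503.
FABP1: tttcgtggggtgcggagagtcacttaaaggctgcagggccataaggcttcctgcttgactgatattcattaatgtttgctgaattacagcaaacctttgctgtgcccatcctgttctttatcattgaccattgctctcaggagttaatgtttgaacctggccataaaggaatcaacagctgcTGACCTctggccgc
CIDEC: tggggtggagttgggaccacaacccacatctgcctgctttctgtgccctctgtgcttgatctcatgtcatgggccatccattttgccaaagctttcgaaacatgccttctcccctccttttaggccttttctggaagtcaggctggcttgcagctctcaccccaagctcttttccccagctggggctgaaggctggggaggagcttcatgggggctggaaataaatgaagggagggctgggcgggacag
The FABP1 match begins at position -68 from the RefSeq start. Over 35116 promoter windows of 250 bases, searched on both strands, 12.1% held AGGTCA, and of the 11 windows of the 9 genes 1 did. The variant GGGTCA was found in 12.1% of all windows and in 2 of the 11, at -138 in ACADM and at -73 in PLIN2. The full repeat AGGTCANAGGTCA, in which N is any base, was found in 0.0171% of all windows and in 0 of the 11. A match of letters shows no binding, and windows without one can hold other forms of the site.

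Library totals ran from 57128519 counts in weak-cloaked replicate 1 to 78548789 in strong-cloaked replicate 1. On the first principal component, which held 21.1% of the variance, untransfected libraries had scores of -70.5 to -68.6 and 11 of the 12 transfected ones -7.81 to 44.1. The exception was weak-cloaked replicate 1, at -51.6, on the side of untransfected cells. Results that rest on it are given with and without it below. The 10 hepatocyte genes used to check the line, ALB and APOA1 among them, all passed the filter and summed to 15800 to 20300 CPM (counts scaled to a common library size) in transfected libraries and 14900 to 18100 CPM in untransfected libraries. Of the 10, 2 were called higher, among them APOA1, and 3 lower, among them APOB. The adipocyte markers, which matter here because CIDEC and the perilipins are also fat cell genes, summed to 10.8 to 23.2 CPM in transfected and 15 to 19 CPM in untransfected libraries, with LEP at 0 in all 15 and ADIPOQ never above 0.062 CPM. Of 9 adipocyte markers, 5 were tested and 0 passed. The 6 leukocyte markers summed to 923 to 1310 CPM against 1140 to 1560 CPM, with MS4A1 at 0 and PTPRC never above 0.109 CPM. The sum thus came almost wholly from CD3E, CD14, CD68 and LYZ, and its split among them is not given here. Of the 4 tested only CD68 was called, higher after transfection by 1.87 ± 0.40 on the log2 scale (edgeR, adjusted p = 0.0069). The median log2 fold change of the 4 was 0.41, and the sum gives no direction for single markers. The 8 fibroblast and endothelial markers summed to 16.1 to 22.2 CPM against 19.6 to 24.0 CPM, and 2 of 7 tested, PDGFRB and VWF, were lower. The part of these markers in the results was not tested.

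Per kilobase of exon, the order of the levels differed between transfected and untransfected cells. In the 12 transfected libraries PLIN2 averaged 88.4 CPM per kilobase, ANGPTL4 19.7, CPT1A 15.2, CIDEC 10.1, FABP1 9.27, ACADM 5.16, PPARA 0.768, PLIN5 0.306 and PDK4 0.0787. In untransfected cells PLIN2 averaged 83.8 ± 28.6 CPM per kilobase, CPT1A 19.3 ± 1.57, ANGPTL4 13.4 ± 0.94, FABP1 11.9 ± 0.90 and ACADM 9.43 ± 1.5 (SD, n = 3). The lower genes there were CIDEC at 4.23 ± 0.76 CPM per kilobase, PPARA at 0.678 ± 0.31, PLIN5 at 0.236 ± 0.036 and PDK4 at 0.132 ± 0.029. In the order of untransfected cells, the replicates of ANGPTL4 and FABP1 overlapped, as did those of FABP1 and ACADM, and the other neighbours did not.

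Taking the 4 transfected groups together against untransfected cells, CIDEC and ANGPTL4 rose while CPT1A, ACADM, FABP1 and PDK4 fell. These are single genes of their functions. Other genes listed for lipid droplets, mitochondrial beta-oxidation and fatty acid uptake, given below, moved in both directions. CIDEC rose by 1.25 ± 0.15 on the log2 scale (± SE) and ANGPTL4 by 0.55 ± 0.14. ACADM fell by 0.88 ± 0.22, PDK4 by 0.89 ± 0.30, FABP1 by 0.37 ± 0.09 and CPT1A by 0.35 ± 0.08. PLIN2, PLIN5 and PPARA did not pass the test. Of the 9 genes 2 were therefore called higher and 4 lower by edgeR's quasi-likelihood test at a Benjamini-Hochberg adjusted p below 0.05, against 10.4% and 12.7% of all genes tested. In 3 genes, CIDEC, ANGPTL4 and CPT1A, no transfected library overlapped an untransfected one, which held for 10.9% of all genes. The median log2 fold change was 0.07 over the 9 genes and -0.05 over all genes. Without untransfected replicate 2 the count was 2, with CIDEC and ACADM still called and 11.4% of all genes called in either direction. Without weak-cloaked replicate 1 it was 6 with the same genes, and 31.5% of all genes were called, against 23.1% with all libraries.

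Among the droplet genes CIDEC (ENSG00000187288, chromosome 3, 9866711 to 9880254, minus strand of GRCh38) changed the most. Its level in replicates 1, 2 and 3 was 16.01, 22.7 and 17.9 CPM with non-cloaked mRNA, 16.2, 19.2 and 22.3 with weak, 18.4, 19.2 and 16.4 with medium and 22.6, 22.3 and 19.98 with strong cloaking, against 8.79, 9.16 and 6.47 CPM in untransfected cells. Every transfected library, weak-cloaked replicate 1 included, was above every untransfected one. The fold was 2.38 (edgeR, adjusted p = 0.00049), and the log2 value stayed between 1.02 and 1.34 under all 24 alternative settings. CIDECP1, a pseudogene copy of CIDEC to which reads could be assigned, had 2.61 to 3.80 CPM in transfected and 2.81 to 4.74 CPM in untransfected libraries and did not pass the test (log2 fold change -0.20 ± 0.17, edgeR adjusted p = 0.43).

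The 2 perilipins among the 9 genes did not pass the test. PLIN2 (ENSG00000147872, chromosome 9, 19108375 to 19149290, minus strand), the main droplet coat of liver cells, ran from 368 to 614 CPM in transfected libraries, with a median of 437, against 438, 565 and 275 CPM in untransfected cells. The untransfected replicates alone differed by 2.05 times, and the pooled difference of 0.07 ± 0.18 on the log2 scale had a 95% interval of -0.31 to 0.45 (edgeR, adjusted p = 0.82). Its sign turned under total-count scaling (-0.16) and without untransfected replicate 3 (-0.17). PLIN5 (ENSG00000214456, chromosome 19, 4522531 to 4535224, minus strand), which tethers droplets to mitochondria in oxidative tissues, was near 1 CPM. It ran from 0.711 to 2.98 CPM after transfection, against 1.25, 0.938 and 1.22 CPM without. The highest value was strong-cloaked replicate 3, and the pooled difference was 0.35 ± 0.29 (95% interval -0.28 to 0.97, edgeR adjusted p = 0.42). With strong cloaking alone PLIN5 had 1.43, 1.59 and 2.98 CPM, all above the untransfected libraries, and differed by 0.81 ± 0.36 (unadjusted p = 0.0405, edgeR adjusted p = 0.137). PLIN5 shares 6798 bases with the annotated gene AC011498.4 on the same strand. That gene has no entry of this name in the matrix, and whether reads in the shared stretch were counted for PLIN5 cannot be told.

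ANGPTL4 (ENSG00000167772, chromosome 19, 8363289 to 8374373, plus strand) had 36.7, 47.6 and 46.7 CPM with non-cloaked mRNA, 41.0, 51.6 and 61.7 with weak, 47.4, 36.5 and 48.4 with medium and 54.6, 66.2 and 49.7 with strong cloaking, against 32.9, 31.0 and 35.6 CPM in untransfected cells. All 12 transfected libraries lay above the 3 untransfected ones, although medium-cloaked replicate 2 and untransfected replicate 3 were close. The fold was 1.47 (edgeR, adjusted p = 0.015). The call ended under total-count scaling, where the log2 value was 0.32 (adjusted p = 0.062), and without untransfected replicate 1 or 2 (adjusted p = 0.053 and 0.07).

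CPT1A (ENSG00000110090, chromosome 11, 68754620 to 68844410, minus strand), the entry step of mitochondrial fat burning, had the tightest replicates of the 9 genes. It measured 97.7, 104 and 95.3 CPM with non-cloaked mRNA, 91.9, 99.5 and 106 with weak, 97.2, 91.9 and 105 with medium and 96.7, 105 and 102 with strong cloaking, against 118, 138 and 124 CPM in untransfected cells. All transfected libraries lay below all untransfected ones. Its within-group SD of 0.0918 on the log2 scale was larger than that of only 2.58% of 10083 genes with a mean of at least 5 CPM. The decrease was to 0.787 times the untransfected level (edgeR, adjusted p = 0.0073), and its call ended without untransfected replicate 2 (adjusted p = 0.057).

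ACADM (ENSG00000117054, chromosome 1, 75724347 to 75787575, plus strand), the medium-chain acyl-CoA dehydrogenase of beta-oxidation, fell to 0.545 times the untransfected level (edgeR, adjusted p = 0.013). Its level was 29.9, 20.2 and 20.8 CPM with non-cloaked mRNA, 46.4, 24.4 and 15.9 with weak, 23.2, 24.0 and 24.6 with medium and 22.5, 19.4 and 24.7 with strong cloaking, against 39.8, 42.4 and 53.0 CPM in untransfected cells. Weak-cloaked replicate 1 lay inside the untransfected range, and the other 11 transfected libraries, at 15.9 to 29.9 CPM, lay below it. Without that library the pooled log2 value was -1.01 (adjusted p = 0.00034), and without untransfected replicate 3 the call was lost (adjusted p = 0.073). ACADM shares 1379 bases with RABGGTB on the same strand, which had a log2 fold change of 0.15 ± 0.13 (edgeR, adjusted p = 0.46).

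**Figure D1:**
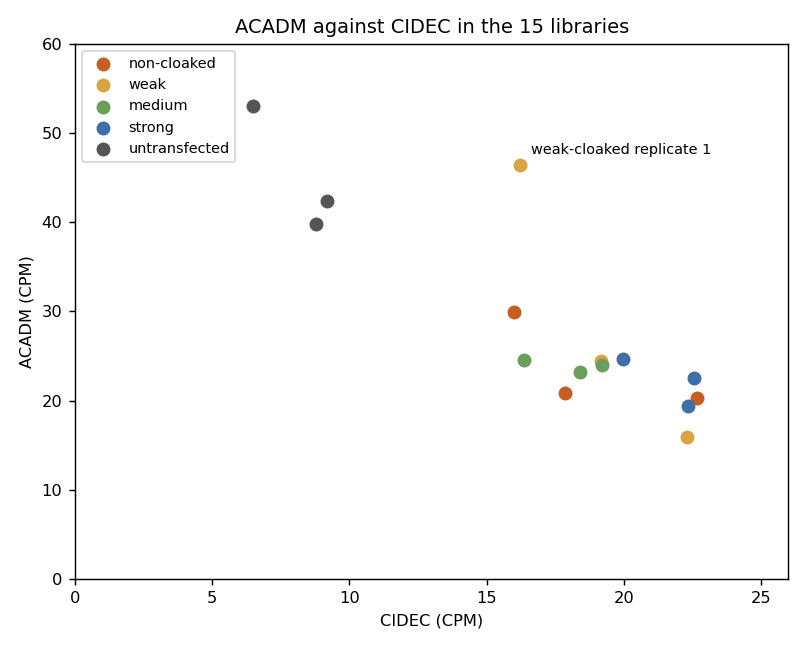
ACADM level (vertical axis, CPM) against CIDEC level (horizontal axis, CPM), 1 point per library, coloured by group. Weak-cloaked replicate 1 has 46.4 CPM of ACADM, inside the untransfected range of 39.8 to 53.0, but 16.2 CPM of CIDEC, inside the transfected range of 16.01 to 22.7.

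Weak-cloaked replicate 1 was thus not placed alike by all 9 genes. It lay among the other transfected libraries and outside the untransfected range for CIDEC, ANGPTL4, CPT1A and PDK4, and the reverse held for ACADM. For PLIN2 it was above both ranges at 614 CPM, and for PLIN5 at 0.711 CPM and FABP1 at 19.5 CPM it was below both. For PPARA it was within both.

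FABP1 (ENSG00000163586, chromosome 2, 88122982 to 88128116, minus strand), the liver fatty acid binding protein, fell to 0.776 times the untransfected level (edgeR, adjusted p = 0.015). It measured 20.5, 21.3 and 21.4 CPM with non-cloaked mRNA, 19.5, 23.4 and 23.5 with weak, 23.5, 22.4 and 20.8 with medium and 28.7, 25.8 and 24.1 with strong cloaking, against 27.2, 31.6 and 29.4 CPM in untransfected cells. The strong-cloaked libraries were the highest 3 of the 12, and 1 of them lay inside the untransfected range. The call ended without untransfected replicate 2 (adjusted p = 0.09).

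PDK4 (ENSG00000004799, chromosome 7, 95583499 to 95596491, minus strand) was the lowest of the 9 genes, with 8 to 40 counts in transfected and 39 to 57 counts in untransfected libraries. Its level was 0.275, 0.151 and 0.137 CPM with non-cloaked mRNA, 0.411, 0.629 and 0.407 with weak, 0.485, 0.519 and 0.587 with medium and 0.212, 0.298 and 0.155 with strong cloaking, against 0.693, 0.446 and 0.651 CPM in untransfected cells. Non-cloaked and strong-cloaked libraries were all below every untransfected one, whereas weak- and medium-cloaked libraries overlapped them. The pooled call (edgeR, adjusted p = 0.044) was lost in 15 of 23 alternatives, with adjusted p-values up to 0.24.

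PPARA (ENSG00000186951, chromosome 22, 46150521 to 46243756, plus strand), the receptor gene itself, varied more within groups than between them. It ran from 3.30 to 22.4 CPM in transfected libraries, with a median of 7.64, against 11.4, 11.3 and 4.28 CPM in untransfected cells. Within the medium-cloaked group alone the replicates had 4.08, 8.16 and 22.4 CPM. Its within-group SD of 0.943 on the log2 scale was above that of 96.9% of genes with a mean of at least 5 CPM, for which the median was 0.24. The pooled difference of 0.16 ± 0.54 had a 95% interval of -1.02 to 1.33 (edgeR, adjusted p = 0.87), and its sign turned under total-count scaling (-0.08) and without medium-cloaked replicate 3, strong-cloaked replicate 1 or untransfected replicate 3 (-0.07, -0.02 and -0.19). PPARA shares 2045 bases with the annotated gene FP325332.1 on the same strand, which also has no entry of its name in the matrix.

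Changes across the transcriptome moved with the base composition and length of transcripts. Among 17146 annotated genes, split into 4 bins of nearly equal size by GC content or by length, the pooled median log2 fold change was -0.31 in the bin of lowest GC content and 0.14 in that of highest. It was 0.17 in the bin of shortest and -0.22 in that of longest transcripts. CIDEC (57.2% GC, 1277 bases) and ANGPTL4 (63.3%, 1879 bases) belong to the highest GC and shortest bins, ACADM (41.0%) and PDK4 (39.4%) to the lowest GC bin, and CPT1A (5232 bases) to the longest. PPARA (9995 bases) also belongs to the longest bin, PLIN2 (1972 bases) to the shortest and PLIN5 (61.8% GC) to the highest GC bin. None of these passed the pooled test. FABP1, which was called lower, is in neither end bin for either property. With offsets for both properties, an alternative chosen after the data were seen, the pooled log2 values were 1.09 for CIDEC (adjusted p = 0.00016), 0.40 for ANGPTL4 (adjusted p = 0.027), -0.65 for ACADM (adjusted p = 0.0096), -0.30 for FABP1 (adjusted p = 0.028), -0.24 for CPT1A (adjusted p = 0.029) and -0.55 for PDK4 (adjusted p = 0.2). Total-count scaling moved the median of all genes by -0.23.

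Set against untransfected cells one group at a time, CIDEC passed the test in all 4 groups, while the other calls depended on the group. With non-cloaked mRNA CIDEC rose by 1.21 ± 0.18, and PDK4 fell by 1.66 ± 0.41 and FABP1 by 0.48 ± 0.12 (edgeR, adjusted p = 0.0045, 0.036 and 0.037), against 3.84% of all genes higher and 2.66% lower. With weak cloaking the single call was CIDEC at 1.24 ± 0.18 (edgeR, adjusted p = 0.0045), against 2.11% higher and 1.19% lower, shares that were 10.1% and 11.2% without weak-cloaked replicate 1. With medium cloaking CIDEC rose by 1.14 ± 0.18, and CPT1A fell by 0.37 ± 0.10 and FABP1 by 0.40 ± 0.12 (edgeR, adjusted p = 0.0037, 0.028 and 0.043), against 6.25% higher and 7.49% lower. With strong cloaking CIDEC rose by 1.41 ± 0.18 and ANGPTL4 by 0.78 ± 0.17, and PDK4 fell by 1.42 ± 0.41, ACADM by 1.02 ± 0.30 and CPT1A by 0.32 ± 0.10 (edgeR, adjusted p = 0.0013, 0.015, 0.035, 0.037 and 0.046). These 2 higher and 3 lower calls stood against 7.99% and 7.11% of all genes. In the 2 groups where CPT1A missed the threshold its log2 value was -0.35 ± 0.10 with non-cloaked mRNA (edgeR, adjusted p = 0.0505) and -0.35 ± 0.10 with weak cloaking (adjusted p = 0.065). Whether the fold changes differ between groups was tested only as the differences among transfected groups given below, and the 4 comparisons share the same 3 untransfected libraries.

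**Figure D2:**
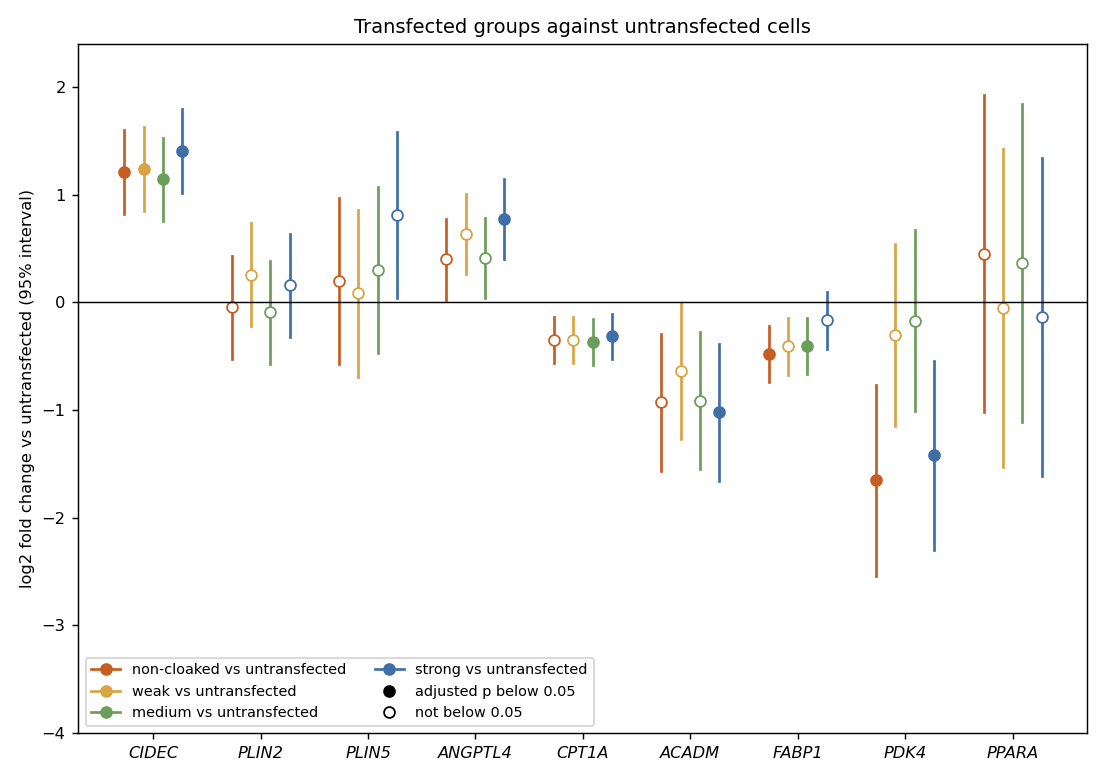
log2 fold change of each gene in each transfected group against untransfected cells (points) with the 95% interval (vertical lines), groups from left to right non-cloaked, weak, medium and strong. Filled points had an adjusted p below 0.05: CIDEC is filled in all 4 groups, from 1.14 to 1.41, and PLIN2, PLIN5 and PPARA in none.

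Groups of 3 did not overlap with untransfected cells in 6 genes with non-cloaked mRNA (34.6% of all genes), 4 with weak (21.2%), 5 with medium (41.5%) and 6 with strong cloaking (40.3%). The calls per group rested on few libraries. The non-cloaked group had 1 call when its own replicate 2 or 3, or any single medium-cloaked or untransfected library, was left out, and 5 without weak-cloaked replicate 1 or 3. The share of all genes called moved with it, to 0.631% to 3.21% in the first case and 16.5% and 10.6% in the second, against 6.5% with all libraries. Weak cloaking had 4 calls without weak-cloaked replicate 1, namely CIDEC, ANGPTL4, CPT1A and ACADM. Of the 18823 genes tested without it, 21.3% were called, against 3.29% of genes with all libraries. Medium cloaking had 1 call when any single library of its own, or untransfected replicate 2, was left out, where 4.16% to 6.63% of all genes were called. Strong cloaking had 1 call without strong-cloaked replicate 2 or untransfected replicate 2, 2 without replicate 1 or 3 of either group, and 3 without medium-cloaked replicate 1 or 3, with 3.86% to 11.1% of all genes called. CIDEC with weak cloaking was itself not called when the 2 groups compared were fitted alone (edgeR, adjusted p = 0.22). In that fit 4 of 17397 genes were called.

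The study asks what cloaking does to gene expression, and none of the 9 genes passed the test between a cloaked group and the non-cloaked group. In edgeR 0 of 9 genes were called in weak-, medium- or strong-cloaked against non-cloaked cells, and 0 in the F test of any difference among the 4 groups, against 0.00544%, 0%, 0% and 0.00544% of all genes. DESeq2 also called 0 of the 9. At an unadjusted p below 0.05 there were 1, 1, 2 and 1 of the 9, against 3.92%, 9.5%, 3.61% and 4.1% of all genes. Non-overlapping groups numbered 1 with weak (6.88% of all genes), 1 with medium (22.2%) and 2 with strong cloaking (10%).

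PDK4 was the gene behind the unadjusted values with weak and medium cloaking and in the F test. It was higher than in non-cloaked cells by 1.35 ± 0.41 on the log2 scale with weak cloaking (95% interval 0.46 to 2.24, edgeR adjusted p = 0.97) and by 1.49 ± 0.41 with medium cloaking (0.60 to 2.37, adjusted p = 0.46), with no overlap in either. With strong cloaking the difference was 0.23 ± 0.42 (-0.67 to 1.13, adjusted p = 1), so the levels were not ordered by grade. The F test gave an unadjusted p of 0.0049 and an adjusted p of 0.99 in edgeR. These values rest on 8 to 20 counts in each non-cloaked library.

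With strong cloaking ANGPTL4 differed from non-cloaked cells by 0.38 ± 0.17 (95% interval 0.01 to 0.75) and FABP1 by 0.31 ± 0.12 (0.05 to 0.58), both with an adjusted p of 1 in edgeR. For CIDEC, the gene of largest pooled change, the intervals of the log2 difference from non-cloaked cells were -0.35 to 0.41 with weak, -0.45 to 0.32 with medium and -0.18 to 0.58 with strong cloaking. CPT1A was bounded most narrowly, at -0.21 to 0.21, -0.23 to 0.19 and -0.18 to 0.25 for weak, medium and strong cloaking. PPARA was bounded least, with intervals that reached from -2.07 to 1.39 over the 3 grades.

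Other genes of the same pathways moved in both directions after transfection. In 10 lists of such genes, 123 of 132 genes were tested, and against untransfected cells 18 were higher (14.6%) and 17 lower (13.8%), with a median log2 fold change of 0.03. Of all genes 10.4% were higher and 12.7% lower. The lists, like the 9 genes, were chosen with earlier results of these data known, so their shares are descriptive only. The split moved to 6 higher and 30 lower under total-count scaling and to 28 and 13 with offsets for length and GC content. All genes moved alike, to 945 higher and 4358 lower of 18380 under total-count scaling and to 2574 and 1878 with the offsets. In the main fit these numbered 1906 and 2336. Leaving out untransfected replicate 2 or 3 lowered the 35 calls to 19 and 21. The share of all genes called fell as well, from 23.1% to 11.4% and 14.8%. By group, 6 were higher and 7 lower with non-cloaked mRNA, 4 and 4 with weak, 13 and 9 with medium and 15 and 11 with strong cloaking. The shares of all genes were 3.84% and 2.66%, 2.11% and 1.19%, 6.25% and 7.49%, and 7.99% and 7.11% in the same order. Between cloaked and non-cloaked cells edgeR called 0 in each grade, with 4, 10 and 5 at an unadjusted p below 0.05 for weak, medium and strong cloaking. These are 3.25%, 8.13% and 4.07% of the list genes, near the 3.92%, 9.5% and 3.61% of all genes.

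Of the 26 called genes named from these lists, 12 kept their call in every alternative run: PPARGC1A, PPARGC1B, TXNIP, MLYCD, CES1, ACADSB, CPT1C, ETFA, ACADVL, BDH1, SLC27A2 and ANGPTL8. Each of the others lost it in at least 1, in every case when some untransfected library was left out.

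The list of other PPAR receptors and their partners had the lowest median, at -0.41 over 13 genes. Of these 5 were lower and 1 higher, against 12.7% and 10.4% of all genes. The higher one was the receptor gene PPARG, at 0.31 ± 0.10 (edgeR, adjusted p = 0.038), which falls outside the rule for naming genes and was singled out after its value was seen. PPARGC1A, the coactivator that drives mitochondrial and fasting gene programmes in liver, fell by 1.29 ± 0.20 (edgeR, adjusted p = 0.0017). Its mean level was 4.97 ± 2.01 CPM in non-cloaked, 5.51 ± 1.09 in weak-, 6.05 ± 0.44 in medium- and 4.80 ± 0.68 in strong-cloaked cells, against 13.0 ± 4.00 CPM in untransfected cells (SD, n = 3 each), and no transfected library overlapped an untransfected one. Its relative PPARGC1B fell by 0.99 ± 0.20, the Mediator subunit MED1 by 0.76 ± 0.22 and the deacetylase SIRT1 by 0.71 ± 0.19 (edgeR, adjusted p = 0.0054, 0.025 and 0.018). The call of MED1 was lost when any single untransfected library was left out (adjusted p up to 0.11), and that of SIRT1 without untransfected replicate 2 or 3 (adjusted p = 0.063 and 0.1).

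Among other PPAR-alpha targets 5 of 20 tested genes were higher and 2 lower, against 10.4% and 12.7% of all genes. TXNIP, an inhibitor of thioredoxin, rose by 1.15 ± 0.23 and the pantetheinase VNN1 by 0.87 ± 0.23, whereas MLYCD, which breaks down the CPT1 inhibitor malonyl-CoA, fell by 0.95 ± 0.20 and the peroxisome division factor PEX11A by 0.88 ± 0.27 (edgeR, adjusted p = 0.0048, 0.017, 0.0066 and 0.034).

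Other lipid droplet proteins gave 2 higher and 2 lower of 17 tested, again against 10.4% and 12.7% of all genes. PLIN3 rose by 0.36 ± 0.09 and the late endosome GTPase RAB7A by 0.29 ± 0.07, and the droplet methyltransferase-like protein METTL7B fell by 1.01 ± 0.24 and the dehydrogenase HSD17B11 by 0.46 ± 0.14 (edgeR, adjusted p = 0.015, 0.013, 0.0094 and 0.035). Under total-count scaling PLIN3 and RAB7A were not called (adjusted p = 0.2 and 0.46). Lipolysis genes gave 2 higher and 0 lower of 9. The liver carboxylesterase CES1 rose by 1.09 ± 0.16 (edgeR, adjusted p = 0.0011), to 847 ± 55.5 CPM in non-cloaked, 793 ± 197 in weak-, 920 ± 92.6 in medium- and 904 ± 211 in strong-cloaked cells, against 407 ± 39.0 CPM in untransfected cells (SD, n = 3 each). CES2 rose by 0.22 ± 0.07 (edgeR, adjusted p = 0.035), a call that was lost in 12 of 24 alternatives and whose sign turned under total-count scaling (-0.01).

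The list made for mitochondrial beta-oxidation, without CPT1A and ACADM, was split, with 6 higher and 3 lower of 22. The shares of all genes were 10.4% and 12.7%. ACADSB, the dehydrogenase of short branched acyl-CoA, fell by 0.94 ± 0.13 (edgeR, adjusted p = 0.00096). CPT1C, listed by its gene family and not by a shown part in oxidation, rose by 0.77 ± 0.16 (edgeR, adjusted p = 0.0065). The electron carrier subunit ETFA rose by 0.72 ± 0.11 and the very-long-chain dehydrogenase ACADVL by 0.53 ± 0.11 (edgeR, adjusted p = 0.0018 and 0.0054). ETFA had 230 ± 16.6 CPM in non-cloaked, 266 ± 37.4 in weak-, 265 ± 49.9 in medium- and 251 ± 11.8 in strong-cloaked cells, against 154 ± 8.53 CPM in untransfected cells (SD, n = 3 each). Peroxisomal genes gave 3 higher and 3 lower of 14, among them CROT at -0.68 ± 0.15, CRAT at 0.43 ± 0.11 and ACOX2 at -0.43 ± 0.11 beside PEX11A (edgeR, adjusted p = 0.0085, 0.015 and 0.015).

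The remaining lists held 1 or 2 calls each, in a comparison that called 23.1% of all genes. Of 6 ketone body genes tested only BDH1, which interconverts the main ketone bodies, was called. It fell by 1.05 ± 0.12 (edgeR, adjusted p = 0.00041), to 17.3 ± 2.59 CPM in non-cloaked, 14.2 ± 1.85 in weak-, 12.9 ± 0.93 in medium- and 14.7 ± 1.76 in strong-cloaked cells, against 30.3 ± 4.81 CPM in untransfected cells (SD, n = 3 each). Of 12 genes of fatty acid uptake and activation, the acyl-CoA synthetase SLC27A2 fell by 0.94 ± 0.13 and the acyl-CoA binding protein DBI rose by 0.33 ± 0.09 (edgeR, adjusted p = 0.00097 and 0.017). Of 10 genes of pyruvate dehydrogenase control, DLAT fell by 0.34 ± 0.09 (edgeR, adjusted p = 0.019), a call lost with offsets for length and GC content (adjusted p = 0.7) and, among others, without untransfected replicate 3 (adjusted p = 0.14).

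In the last list, of FABP and ANGPTL relatives and lipoprotein lipase, 1 of 10 tested genes was called. ANGPTL8, a secreted hepatic regulator of lipoprotein lipase, rose by 1.47 ± 0.15 (edgeR, adjusted p = 0.00019). Its mean was 755 ± 106 CPM in non-cloaked, 718 ± 139 in weak-, 723 ± 51.4 in medium- and 884 ± 52.8 in strong-cloaked cells, against 277 ± 58.1 CPM in untransfected cells (SD, n = 3 each).

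**Figure D3:**
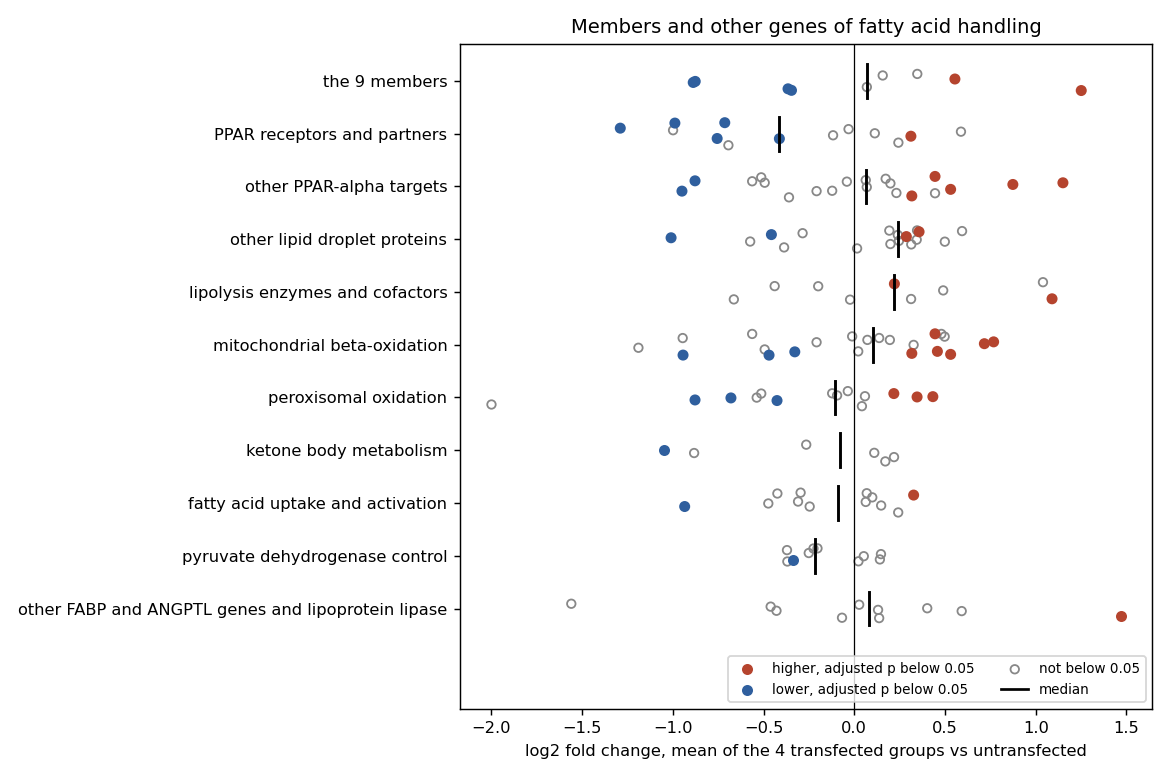
Pooled log2 fold change, transfected over untransfected (horizontal axis), for each gene tested in the 9 members and the 10 pathway lists (1 line each); filled red points are higher and filled blue points lower at an adjusted p below 0.05, and black bars are list medians. The list of PPAR receptors and partners has the lowest median, -0.41, and the highest single value is ANGPTL8 at 1.47.

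ANGPTL8 was also the gene whose log2 level followed CIDEC most closely over the 15 libraries, with a Pearson r of 0.984. The next were KRT19 and LGALS1 (both 0.977), HPD (0.975) and S100A14 (0.974). All 5 had a positive log2 fold change after transfection, so these coefficients describe a set of points that is split into transfected and untransfected libraries.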

How the data were processed

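The deposited matrix holds raw counts, by gene symbol, of 15 poly(A)-selected, strand-specific libraries; RNA met an integrity number of at least 7, per the labels' protocols. HISAT2, HTSeq, DESeq2 1.46.0, R 4.4.2 and GRCh38 are named per the submitters' processing notes. Annotation release, strand setting and matrix filter were not given in the sources used here, so overlapping genes are uncertain. Of 41412 entries, 14176 were 0 throughout. Replicate pairs differed by more than sampling noise, and each library was counted as 1 sample.

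The fit used edgeR 4.0.16 with limma 3.58.1 in R 4.3.3 (filterByExpr, TMM scaling, robust quasi-likelihood fit, 1 mean per group over all 15 libraries). The biological coefficient of variation common to all genes was 0.344. The test used a spread estimated for each gene. The pooled SE on the log2 scale ran from 0.076 for CPT1A to 0.543 for PPARA. For PDK4 the low counts limit precision too. CPM are counts scaled to the TMM-adjusted library size; per-kilobase values divide by the union of exons. Intervals and standard errors come from the F statistic. The p-values were adjusted by Benjamini-Hochberg over 18380 genes. Positions, lengths and GC content came from GENCODE 29, and promoters from RefSeq.

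Members and lists were chosen with earlier results of these data known. Named were all 9 members, up to 4 called genes of largest change per list, and the 5 genes most correlated with the member of smallest p. Calls beyond these are only counted, except PPARG and the cell type markers APOA1, APOB, CD68, PDGFRB and VWF, which are also named. Alternatives were DESeq2 1.42.0, RLE or total-count scaling, no filter on low genes, at least 50 counts in 3 libraries, a fit of the compared groups alone, the replicate number as a block, each library left out, and, added after the data were seen, length and GC offsets. The procedure was tested on simulated data.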

Additional observations from a re-analysis of the deposited data

How the results depend on the processing

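The pooled count of 6 called genes kept within 1.5 times in every alternative that used all libraries, and leaving out 1 library gave 2 to 6. Leaving out 1 library gave 1 to 5 calls for non-cloaked, 1 to 4 for weak-, 1 to 4 for medium- and 1 to 5 for strong-cloaked against untransfected cells, and 0 for every comparison among transfected groups. Weak-cloaked against untransfected cells (1 call) gave 3 under total-count scaling, 2 with at least 50 counts in 3 libraries, 0 with the compared groups alone, 4 in DESeq2 and 2 with length and GC offsets. In the same order, 690 of 18380, 844 of 14869, 4 of 17397, 2012 of 15500 and 1288 of 18380 genes were called. The main fit called 605 of 18380. Strong-cloaked against untransfected cells (5 calls) gave 3 with no filter, with the compared groups alone and with the offsets, without or with the block. In the same order, 2113 of 27236, 3147 of 17339, 2999 of 18380 and 3309 of 18380 genes were called, against 2776 of 18380. Non-cloaked against untransfected cells (3 calls) gave 5 in DESeq2 and 1 with offsets and block. Of all genes 2968 of 15855 and 1424 of 18380 were called there, against 1195 of 18380. PLIN2 turned to -0.155 under total-count scaling, and ran from -0.173 to 0.323 with 1 library left out. PPARA turned to -0.0787 and ran from -0.186 to 0.357. CES2 turned to -0.00696 under total-count scaling. The cause was not tested. Over the 10 pathway lists the 35 calls became 44 in DESeq2, where 5202 of 17276 genes were called, against 4242 of 18380. With 1 library left out they ran from 19 to 44. They were lowest without untransfected replicate 2 (19, with 11.4% of all genes called) and replicate 3 (21, with 14.8%). Of 1137 alternative values of single genes, 965 kept direction and side of the threshold, 165 lost the call and 7 changed sign. Genes called between cloaked and non-cloaked cells numbered 21, 76 and 15 in DESeq2 for weak, medium and strong cloaking. PDK4 was not tested under the 50-count filter, and its counts limit it most.

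Fitting the replicate number as a block gave 5 pooled calls (PDK4 lost, adjusted p = 0.059), 3 for non-cloaked, 1 for weak-, 2 for medium- (FABP1 lost, adjusted p = 0.056) and 5 for strong-cloaked cells. Of 18380 genes 4304, 1424, 816, 2658 and 2958 were called with the block, in that order. Without it they numbered 4242, 1195, 605, 2524 and 2776. The labels do not say whether equal numbers share a batch. Residuals of same-numbered libraries correlated at -0.0635 to 0.174, and 2 of 30 pairs were over 0.1. Those of differently numbered libraries correlated at -0.137 to 0.113, and 1 of 60 pairs was over 0.1. Of the 15 libraries, 7 correlated best with a library of their own number.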
